A study of Mus musculus with 8 samples.

Results

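Of the 770 genes in the table, 10 code for leukocyte adhesion molecules or their ligands and are described here: Cd6, Cd5, Cd2, Alcam, Selplg, Spn, Cd44, Icam1, Icam2 and Vcam1. They were taken by symbol for what their products do. RNA from mouse inguinal lymph nodes was counted on the NanoString mouse pan-cancer immune panel, which counts tagged probes bound to selected transcripts, with no amplification step. The labels call 4 libraries tumor-free and 4 tumor-bearing. Per the series description, the tumor-bearing nodes held Eµ-myc lymphoma cells, from a B lineage cancer that a Myc transgene causes in mice, which had spread through the lymphatic vessels. The labels give no strain, age, cell dose or time, and do not say whether each node is from a different mouse, so the p-values refer to the spread among these libraries, part of which may be technical.

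Leukocytes use these molecules to slow down on vessel walls, to enter a node and to hold on to the cells they meet there. Selplg and Spn code for mucin-like coats of leukocytes, of which the Selplg product binds selectins. The Icam1, Icam2 and Vcam1 products are ligands on vessel, stromal and antigen-presenting cells for leukocyte integrins. Cd2, Cd5 and Cd6 code for surface receptors of T cells, and in part of other lymphocytes. They act at the contact between a T cell and a partner cell. The Alcam product is a ligand of the Cd6 product.

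Libraries are named by their labels, because Myc went against them. Its normalized count was between 9250 and 33147 in the libraries labelled tumor-free and between 2996 and 3281 in those labelled tumor-bearing. If the labels are exchanged, each signed value below changes sign, each fold is inverted, each count of higher genes becomes one of lower genes, and each rank runs from the other end. Labelled tumor-free replicate 3 stood apart from the other libraries of its group, with the lowest Myc (9250) and the highest summed T cell markers (48736 against 8766 to 19872 in the other 3). Values are therefore also given without it, as a description: it was singled out for its Myc and its T cell markers, so genes that follow these markers had to differ more between the groups once it was left out. Recovered totals were 659771 to 819257 counts per library, and no gene read 0 in any library. Of the lists of genes set beside the adhesion genes, all 5 kept growth genes and 8 of 20 panel reference genes were called lower, 4 of 12 B cell markers higher and 2 lower, and 2 of 9 kept stromal markers higher. All 10 adhesion genes passed the filter on low values, as did 609 of the 770 genes in all.

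Cd2, Cd5, Cd6, Selplg and Spn were called higher in the libraries labelled tumor-bearing, and no member was called lower. The group difference is given as log2 of the normalized count plus 1, labelled tumor-bearing minus labelled tumor-free, tested with limma and called at a Benjamini-Hochberg adjusted p under 0.05 over the 609 kept genes. Of these 609 genes, 27.6% were called higher and 10.7% lower, against 5 and 0 of the 10 members. Folds are this log2 difference written as a ratio, so they are ratios of geometric means and differ from the ratio of the arithmetic means printed beside them. The members' median difference was 0.72, beside 0.36 over all kept genes. In the same 5 members the 4 values of each group did not overlap, with the labelled tumor-bearing group above, as was the case in 21.7% of the kept genes.

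**Figure D1:**
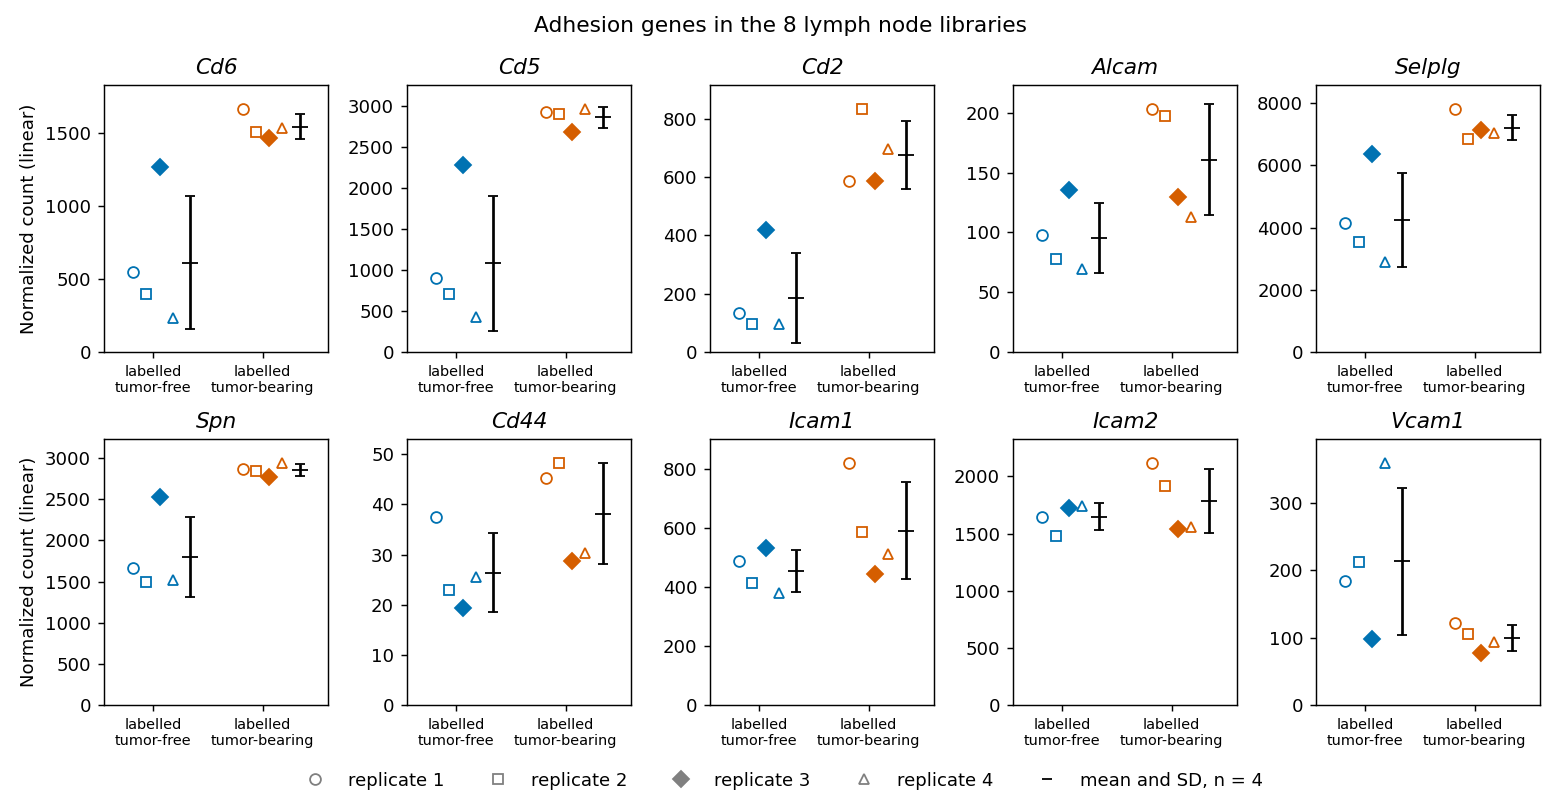
Normalized count (linear axes starting at 0) of each adhesion gene in the 8 libraries, with blue for labelled tumor-free and orange for labelled tumor-bearing, a symbol for each replicate number, and the mean with its SD (n = 4) in black. In Cd6, Cd5, Cd2, Selplg and Spn every labelled tumor-bearing value lies above every labelled tumor-free value, and the filled blue diamond of labelled tumor-free replicate 3 is the nearest to them.

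Cd2, Cd5 and Cd6 had the 3 largest differences of the members. Cd6, a scavenger receptor cysteine-rich protein of T cells, stood at 545, 399, 1269 and 231 in labelled tumor-free replicates 1 to 4 and at 1664, 1508, 1465 and 1538 in labelled tumor-bearing replicates 1 to 4. The labelled tumor-bearing libraries lay close together, and labelled tumor-free replicate 3 lay nearer to them than to the other 3 of its own group. The mean was 611 ± 457 against 1544 ± 85.5 (SD, n = 4 each), and the fold between geometric means was 3.06 (log2 difference 1.61, SE 0.43, 95% confidence interval 0.65 to 2.57, limma adjusted p = 0.0253). In whole nodes, more T cells and more of the transcript per T cell cannot be told apart. All 15 kept markers of the T cell list, Cd3e among them, also rose, with a summed level of 8766 to 48736 in the first and 54816 to 62494 in the second group. The ratio of Cd6 to Cd3e is given with the gene pairs.

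Cd5, a relative of Cd6 that dampens T cell receptor signals and is also carried by a subset of B cells, followed Cd6 library by library. Both genes lie on mouse chromosome 19 (GRCm38.p6), Cd5 at chr19:10718107-10739026 and Cd6 at chr19:10789339-10830062. Its values were 907, 705, 2283 and 431 in the labelled tumor-free replicates and 2928, 2905, 2682 and 2966 in the labelled tumor-bearing ones. The order of the labelled tumor-free libraries was that of Cd6 and of Cd3e. The mean rose from 1082 ± 824 to 2870.3 ± 128 (SD, n = 4 each), and the fold between geometric means was 3.22 (log2 difference 1.69, SE 0.42, limma adjusted p = 0.0250).

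Cd2, an adhesion receptor of lymphocytes that binds the Cd48 product in mice, had the largest rise of the members. Of the kept genes, 0.657% rose further. It stood at 135, 95.3, 417 and 94.8 in the labelled tumor-free replicates and at 586, 833, 587 and 696 in the labelled tumor-bearing ones. The value of labelled tumor-free replicate 3 was between those of the other libraries of its group and the lowest of the other group. The rise was 4.42-fold (log2 difference 2.15, SE 0.44, limma adjusted p = 0.0180). Which cells carried the Cd2 transcript was not tested.

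Calls of these 3 receptors were lost in several of the 8 fits that left out 1 library, although their direction was kept in each. Cd6 and Cd5 were not called in 6 of the 8 fits that left out 1 library (limma adjusted p from 0.0536 to 0.0816 in each gene). These were all fits but those without labelled tumor-free replicate 3 or 4. In the same 6 fits 0 to 11 of the 609 kept genes were called higher, against 168 with all 8 libraries. Cd2 was not called in 4 of the 8, without labelled tumor-free replicate 2 or labelled tumor-bearing replicate 2, 3 or 4 (adjusted p from 0.0538 to 0.0708). Without labelled tumor-free replicate 3 the log2 differences were 2.06 for Cd6, 2.14 for Cd5 and 2.63 for Cd2 (adjusted p = 0.000258, 0.000143 and 5.17e-05). These values are a description only, because that library was singled out for its T cell markers. In that fit 264 of the 609 kept genes were called higher.

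Alcam, which codes for an adhesion molecule of activated leukocytes, dendritic, stromal and epithelial cells, was not called. It read 98.1, 78.1, 136 and 69.2 in the labelled tumor-free replicates and 203, 198, 130 and 113 in the labelled tumor-bearing ones. The groups overlapped, because labelled tumor-free replicate 3 exceeded labelled tumor-bearing replicates 3 and 4. The mean was 95.2 ± 29.5 against 161 ± 46.1 (SD, n = 4 each). The log2 difference was 0.75 (SE 0.31, 95% confidence interval 0.07 to 1.44, limma adjusted p = 0.0738). Without labelled tumor-free replicate 3 the difference was 0.94 (limma adjusted p = 0.0176), given as a description. In that fit 264 of the 609 kept genes were called higher, against 168 with all 8 libraries. The 2 labelled tumor-bearing libraries high in Alcam were also those with the higher summed B cell markers, at 29495 and 24773 in replicates 1 and 2 against 17586 and 16675 in replicates 3 and 4. The same libraries were also higher in the median of all 770 genes (224 and 191 against 140 and 143), and in summed endothelial, stromal, macrophage and reference genes. The part of B cell content or of library scaling in the Alcam values was not tested.

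Upstream DNA of Alcam and of Cd5 is shown because they code for the ligand and for the relative of Cd6, and that of Icam1 because its promoter is a textbook target of the inflammatory factor NF-kappaB. RefSeq windows (GRCm38.p6) were matched by symbol for 5 of the 10 members: Alcam, Cd5, Cd44, Icam1 and Spn. The lines run 5′ to 3′ on the gene's strand, and capitals mark AGGAAG, a core of ETS factor motifs, in the first 2 and GGNNNTTCC, a short form of the NF-kappaB motif, in the third, on either strand. The start is that of the transcript in the RefSeq table. For Cd5 it lies inside the gene's full extent given above, so the last 52 of the bases shown, which hold the second AGGAAG, are within the gene, and the 250 bases before the Spn start lie wholly within its gene.
Alcam, chr16:52453082-52453181, minus strand, from 100 bases to 1 base before the start: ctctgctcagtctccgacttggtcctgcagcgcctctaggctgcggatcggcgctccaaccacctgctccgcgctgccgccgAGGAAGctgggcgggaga
Cd5, chr19:10738975-10739094, minus strand, from 120 bases to 1 base before the start: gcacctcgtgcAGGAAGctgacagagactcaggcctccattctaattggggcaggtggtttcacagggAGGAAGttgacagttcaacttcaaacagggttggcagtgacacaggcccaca
Icam1, chr9:21015760-21015879, plus strand, from 180 to 61 bases before the start: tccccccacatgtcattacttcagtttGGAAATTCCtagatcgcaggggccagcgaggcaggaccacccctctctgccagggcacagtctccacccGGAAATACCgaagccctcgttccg
Over the 250 bases before the start, AGGAAG was found on 1 or both strands in Alcam, Cd5, Cd44 and Spn, and in 29.5% of all 32851 windows of that length. GGNNNTTCC was found in Icam1, where GGAAATTCC matches on both strands at the same bases, and in 15.7% of all windows. Neither CACGTG, the E-box that Myc can bind (6.02% of all windows), nor TGTGGT, a RUNX motif (14.0%), was found in the 5 windows. Such matches are a description of the letters and were not tested against the counts.

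The mucin-like coat genes Selplg and Spn rose together. Their differences were smaller than those of Cd2, Cd5 and Cd6, a comparison that was not tested. Selplg, whose product is the main leukocyte ligand of P-selectin, read 4156, 3530.1, 6367 and 2904 in the labelled tumor-free replicates and 7806, 6853, 7149 and 7055 in the labelled tumor-bearing ones. Labelled tumor-free replicate 3 fell just short of the lowest labelled tumor-bearing library. The rise was 1.78-fold (log2 difference 0.83, SE 0.24, limma adjusted p = 0.0267). Spn, coding for sialophorin, a long sialic acid-rich protein of T cells and other leukocytes, read 1668, 1498, 2521 and 1516 in the labelled tumor-free replicates and 2865, 2842, 2764 and 2940.1 in the labelled tumor-bearing ones. Its values without labelled tumor-free replicate 3 were narrow in both groups, at 1561 ± 93.4 (SD, n = 3) and 2853 ± 72.5 (SD, n = 4). Spn rose 1.62-fold (log2 difference 0.70, SE 0.20, limma adjusted p = 0.0265). Selplg and Spn each lost the call in 7 of the 8 fits that left out a library, all but that without labelled tumor-free replicate 3. Their limma adjusted p there ranged from 0.0576 to 0.0875 and from 0.0569 to 0.0875. In the same 7 fits 0 to 89 of the 609 kept genes were called higher, against 168 with all 8 libraries. Without labelled tumor-free replicate 3 the differences of Selplg and Spn were 1.04 and 0.87 (limma adjusted p = 0.000445 and 0.000333), given as a description. In that fit 264 of the 609 kept genes were called higher.

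Cd44, the receptor for hyaluronan that is raised on activated and memory lymphocytes, was the dimmest member. Its values were 37.5, 23.0, 19.4 and 25.6 in the labelled tumor-free replicates and 45.25, 48.3, 28.7 and 30.4 in the labelled tumor-bearing ones. The groups overlapped, and each value rested on 19 to 44 recovered counts. Counting error alone gave 95% Poisson intervals of 11.7 to 30.2 for the lowest and 35.1 to 64.8 for the highest value. The part of background or of a weak probe in these values is not known. The log2 difference of 0.52 (SE 0.29, 95% confidence interval -0.13 to 1.18) was not called (limma adjusted p = 0.168). Labelled tumor-free replicate 3 was the lowest of all 8.

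The integrin ligands Icam1, Icam2 and Vcam1 were not called in the deposited values, and whether they differed from Cd2, Cd5 and Cd6 was not tested. Icam1, induced by inflammatory signals on vessels and leukocytes, read 491, 415, 535 and 382 in the labelled tumor-free replicates and 822, 589, 444 and 512 in the labelled tumor-bearing ones. The groups overlapped, and labelled tumor-bearing replicate 1 was the highest of all 8. The log2 difference was 0.35 (SE 0.23, limma adjusted p = 0.241). Icam2, carried steadily by vessel cells and resting lymphocytes, read 1648, 1483, 1727 and 1736 in the labelled tumor-free replicates and 2118, 1913, 1544 and 1555 in the labelled tumor-bearing ones. The groups overlapped, with labelled tumor-bearing replicates 1 and 2 above every labelled tumor-free library and replicates 3 and 4 within their range. The log2 difference of 0.10 (95% confidence interval -0.29 to 0.49, limma adjusted p = 0.638) was the smallest of the members in size.

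Vcam1, the ligand of the Itga4 integrin on cytokine-activated vessels, stromal cells and some macrophages, was the member with a negative difference. It read 184, 213, 97.9 and 359 in the labelled tumor-free replicates and 123, 106, 77.8 and 94.6 in the labelled tumor-bearing ones. Only labelled tumor-free replicate 3 lay within the range of the other group, and labelled tumor-free replicate 4 was the highest of all 8. The mean was 213 ± 109 against 100.4 ± 19.0 (SD, n = 4 each). The log2 difference, -0.95 (SE 0.37, 95% confidence interval -1.79 to -0.12), was not called (limma adjusted p = 0.0655). Vcam1 was called lower with the replicate number as a block (limma adjusted p = 0.0447), though these numbers were not shown to pair the samples. Without labelled tumor-free replicate 3 its difference was -1.28 (limma adjusted p = 0.00419), given as a description. In that fit 93 of the 609 kept genes were called lower, against 65 with all 8 libraries. Labelled tumor-free replicate 4, highest in Vcam1, also had the highest summed stromal markers (1598 against 650 to 1401 in the other 7 libraries). The lowest stromal sum, 650, was that of labelled tumor-free replicate 2, next highest in Vcam1. Replicate 4 was also the highest in summed growth genes (77357) and summed reference genes (168835). Of 9 kept stromal markers, 2 were called higher and 0 lower. Summed monocyte and macrophage markers were 1554 to 1742 in the first and 693 to 1089 in the second group, with 5 of 10 kept genes lower and 0 higher. Summed endothelial markers were 1554 to 2368 and 2354 to 3175, with 3 of 8 kept genes higher and 1 lower. No stromal, macrophage or endothelial marker read 0. The part of these cells in the Vcam1 values was not tested.

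**Figure D2:**
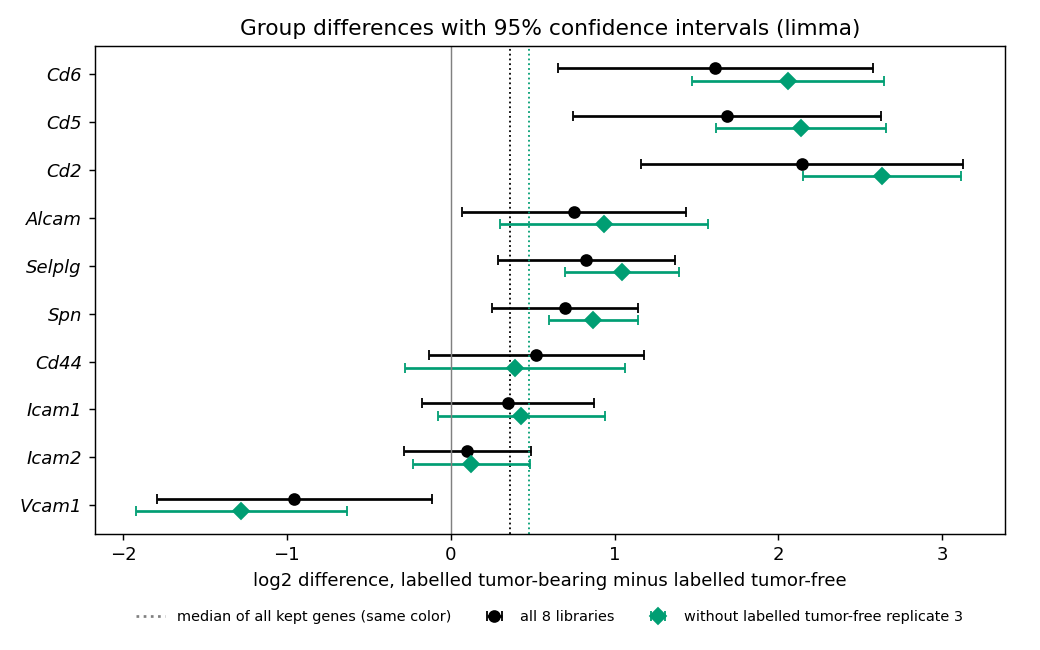
Log2 difference of each adhesion gene, labelled tumor-bearing minus labelled tumor-free, with its 95% confidence interval (limma), in all 8 libraries (black circles) and without labelled tumor-free replicate 3 (green diamonds). Dotted lines mark the median of the 609 kept genes, 0.36 and 0.48, and the solid line marks 0. The Cd6, Cd5, Cd2, Alcam, Selplg and Spn points lie to the right of both medians and the Vcam1 points to the left of 0.

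How the libraries were scaled changed the size of every member's difference, and the direction of 3. The median difference of all kept genes was 0.36 in the deposited values, 0.91 when libraries were scaled on the panel's reference genes, 0.22 with the same total, 0.09 after quantile normalization and -0.17 with the same median. The genes called higher and lower numbered 168 and 65 in the deposited values, 363 and 38 on the reference genes, 187 and 109 with the same total, 178 and 121 after quantile normalization and 115 and 151 with the same median. Cd6, Cd5 and Cd2 rose under all 5 scalings, Cd6 by 1.07 to 2.16, Cd5 by 1.14 to 2.23 and Cd2 by 1.60 to 2.69 on the log2 scale. Selplg was not called with the same median (0.28, adjusted p = 0.142), and Spn neither with the same median (0.15, adjusted p = 0.499) nor after quantile normalization (0.39, adjusted p = 0.0510). Alcam was called higher on the reference genes (1.29, adjusted p = 0.0154), with the same total (0.61, adjusted p = 0.0438) and after quantile normalization (0.53, adjusted p = 0.0454). Vcam1 was called lower with the same median (-1.50, adjusted p = 0.0398) and the same total (-1.10, adjusted p = 0.0432) and stayed negative under all 5. Icam1, Icam2 and Cd44 were called higher on the reference genes, at 0.89, 0.65 and 1.05 (adjusted p = 0.0182, 0.0173 and 0.0144), and had negative differences with the same median.

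**Figure D3:**
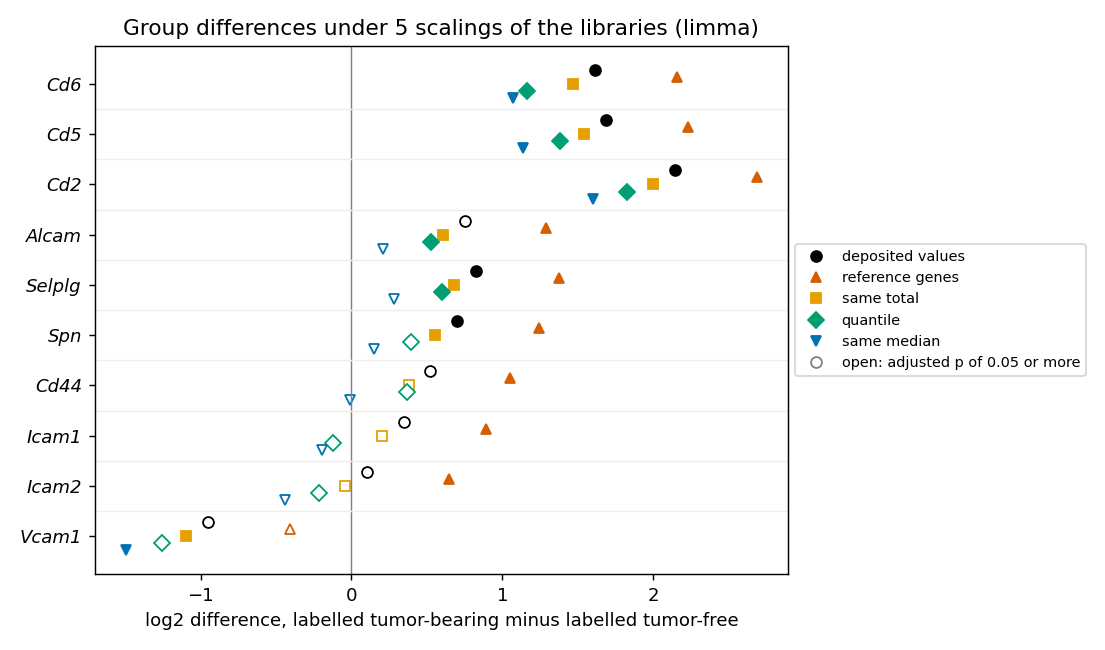
Log2 difference of each adhesion gene, labelled tumor-bearing minus labelled tumor-free, under 5 scalings of the libraries, 1 symbol and color each. Filled symbols passed an adjusted p of 0.05 (limma) and open ones did not. Cd6, Cd5 and Cd2 are filled throughout, and Icam1, Icam2 and Cd44 lie on both sides of 0.

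Differences between a pair of genes within 1 library do not move with that library's scaling factor. They were compared between groups in 12 pairs of receptors, ligands and relatives by a two-sided exact permutation test over 70 regroupings, whose smallest possible p is 0.0286, with Benjamini-Hochberg adjustment over the 12. Probes differ in efficiency, so how such a difference shifts between groups can be read, but not its size in 1 library. The pairs were picked with earlier results known, which bears on each p. None of the 12 passed after adjustment. Over 12 pairs, a pair at the smallest p cannot pass unless several others reach it too. The lack of calls therefore does not show that no pair shifted.

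The receptor and ligand Cd6 and Alcam did not shift by the same amount in the means. Log2 Cd6 minus log2 Alcam was 2.46, 2.34, 3.22 and 1.73 in the labelled tumor-free replicates and 3.03, 2.93, 3.49 and 3.75 in the labelled tumor-bearing ones. Labelled tumor-free replicate 3 lay above labelled tumor-bearing replicates 1 and 2, and the other 3 lay below all 4. The mean difference was 0.86 higher in the labelled tumor-bearing libraries (SE 0.36, exact permutation p = 0.0857, adjusted p = 0.206). Without labelled tumor-free replicate 3 it was 1.12 higher (exact permutation p = 0.0286, the smallest that 35 regroupings can give, and adjusted p = 0.0686). These values are a description only.

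For Cd6 against its relative and against the T cell receptor complex the shifts were small. Cd6 minus Cd5 stayed between -0.90 and -0.73 in the labelled tumor-free and between -0.95 and -0.82 in the labelled tumor-bearing libraries, a mean shift of -0.07 (SE 0.05, exact permutation p = 0.200, adjusted p = 0.300). The shift of Cd6 minus Cd3e was -0.02 (SE 0.07, exact permutation p = 0.771, adjusted p = 0.771), and that of Cd5 minus Cd3e was 0.05 (SE 0.09, exact permutation p = 0.571, adjusted p = 0.686). Quantile normalization, which is not 1 factor per library, gave -0.22 for Cd6 minus Cd5 (exact permutation p = 0.0286, adjusted p = 0.114) and -0.20 for Cd6 minus Cd3e (exact permutation p = 0.143, adjusted p = 0.190). Cd2 minus Cd3e had a shift of 0.51 (SE 0.27, exact permutation p = 0.143, adjusted p = 0.245), which did not exceed the spread between libraries by this test.

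In 4 pairs of a member and its binding partner the test gave an exact permutation p of 0.0571 (adjusted p = 0.171). Cd2 minus Cd48 was 1.42 higher in the labelled tumor-bearing libraries (SE 0.39). Icam1 minus Itgal, Icam2 minus Itgal and Vcam1 minus Itga4, each a ligand minus a chain of its integrin receptor, had shifts of -1.12 (SE 0.41), -1.37 (SE 0.47) and -1.54 (SE 0.56). In each of the 4, labelled tumor-free replicate 3 lay within the labelled tumor-bearing range. The rest of its group lay outside, on the same side. Leaving it out therefore had to give the smallest p of 35 regroupings, exact permutation p = 0.0286 (adjusted p = 0.0686). These values are a description only. Selplg minus Spn, Icam1 minus Icam2 and Cd44 minus Spn had shifts of 0.13 (SE 0.10), 0.25 (SE 0.14) and -0.18 (SE 0.37), with adjusted p of 0.381, 0.245 and 0.686 by the same exact permutation test.

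**Figure D4:**
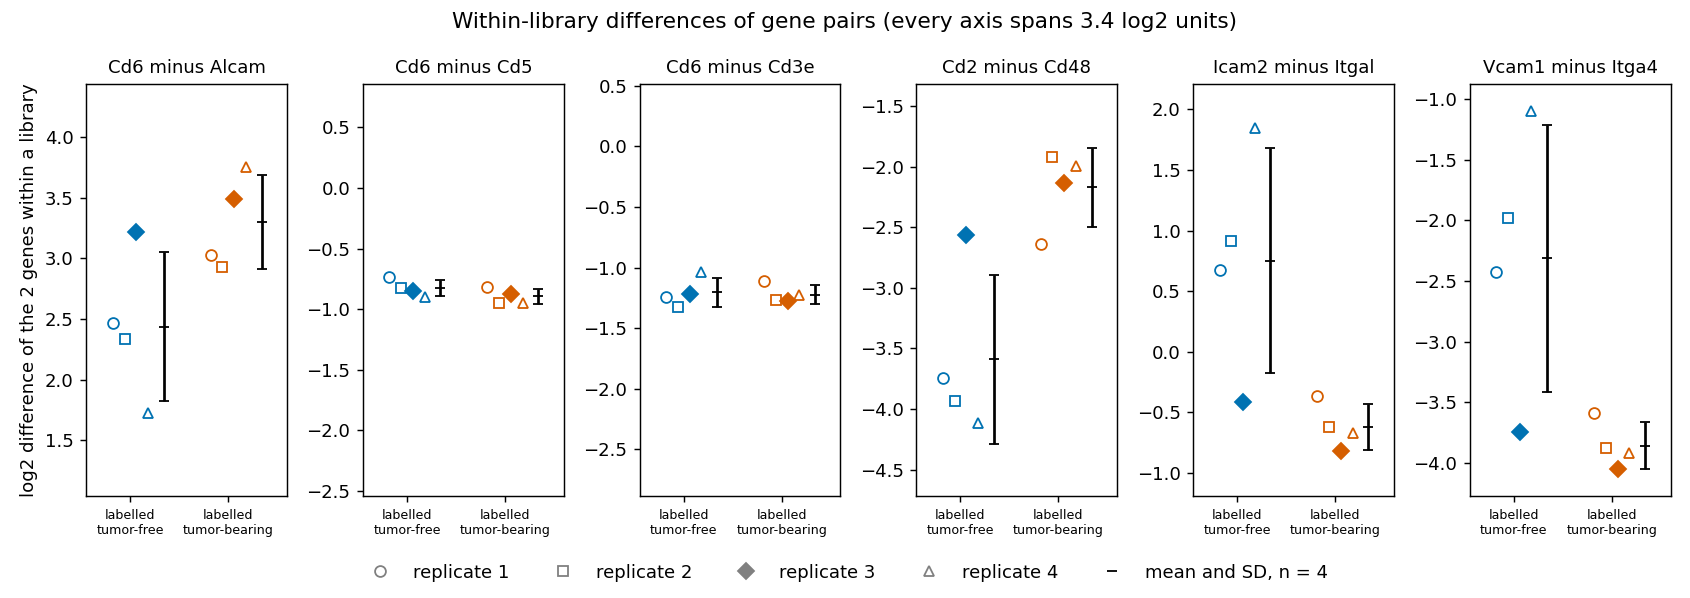
Difference of log2 values of a pair of genes within each library, with blue for labelled tumor-free and orange for labelled tumor-bearing, a symbol for each replicate number and the mean with its SD (n = 4) in black. Every axis spans the same number of log2 units. Cd6 minus Cd5 and Cd6 minus Cd3e lie in a narrow band in both groups, whereas in the other 4 panels labelled tumor-free replicate 3 (filled blue diamond) lies by the labelled tumor-bearing points.

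Integrin chains, not all of which bind the members' products, were counted beside them. Of 10 integrin chains, 8 were measured and kept, of which 4 were called higher and 0 lower, with a median difference of 0.57 beside 0.36 over all kept genes. Itgal and Itgb2, the chains of the lymphocyte receptor for Icam1 and Icam2 products, rose by 1.47 and 1.03 (limma adjusted p = 0.0254 and 0.0253). Itga4, a chain of the Vcam1 receptor, rose by 0.59 (limma adjusted p = 0.0442), while its partner Itgb1 had a difference of -0.25 (adjusted p = 0.237). The 4 higher chains include Itgae, which binds E-cadherin and rose by 2.17 (limma adjusted p = 0.0265).

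Of 9 selectins and mucin-like ligands, 5 were measured and 4 kept, of which 1 was called higher and 0 lower (median 0.20). The call was Glycam1, a sulfated mucin of the high endothelial venules through which lymphocytes enter nodes, at 382, 229, 833 and 146 in the labelled tumor-free and 796, 1033, 1063 and 1013 in the labelled tumor-bearing replicates. Its groups overlapped through labelled tumor-free replicate 3, and its log2 difference was 1.59 (limma adjusted p = 0.0265). Of 28 other adhesion genes, 23 were measured and 22 kept, of which 8 were called higher and 1 lower (median 0.30). The largest were Thy1, a small surface protein of T cells, at 1.70, Cd96, a receptor for the Pvr product, at 1.66 and Cdh1, E-cadherin, at 1.47 (limma adjusted p = 0.0265, 0.0251 and 0.0265). The 1 lower gene was Cd81, a tetraspanin of B cells and other cells, at -0.70 (limma adjusted p = 0.0360). Cd48, the Cd2 ligand, rose by 0.73 (limma adjusted p = 0.0265).

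The called genes of the marker lists follow with their log2 differences, each at a limma adjusted p under 0.05. Of the endothelial markers, Nrp1, Eng and Pecam1 rose by 1.07, 0.91 and 0.66, and Thbd, coding for thrombomodulin, had a difference of -3.34. Of the stromal markers, Tnfsf11, the RANK ligand, and Ccl21a, a chemokine that draws T cells into nodes, rose by 1.27 and 0.77. The monocyte and macrophage markers Fcgr1, Marco, Msr1, Emr1 and Csf1r had differences of -1.75, -1.60, -1.52, -0.91 and -0.73. Of the 15 called T cell markers, Cd8a and Thy1 rose by 1.85 and 1.70. The largest changes among B cell markers were those of Pou2af1, a coactivator, Cr2, a complement receptor, and Blnk, a signalling adaptor, at -1.77, 1.72 and -1.69. The growth genes Birc5, Myc, Mif, C1qbp and Tfrc had differences of -3.34, -2.88, -2.28, -2.27 and -2.24, and the reference genes Polr1b, Eef1g and Gusb of -1.37, -1.30 and -1.18.

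Likeness of pattern was measured as the root mean square distance between log2 values over the 8 libraries, each gene centred on its own mean. For Cd6 the nearest kept genes outside the members were Cd27 (distance 0.053), a costimulatory receptor, Zap70 (0.068) and Lck (0.079), kinases of T cell receptor signalling. Cd5 was at 0.067, the second nearest of the 608 other kept genes. For Alcam the nearest were Cd180 (0.099), a Toll-like receptor relative of B cells, Cd55 (0.114), which restrains complement, and Ebi3 (0.123), a cytokine subunit. Alcam and Cd6 were 0.619 apart, farther than the median distance of 0.486 between Alcam and the kept genes outside the members, but nearer than the same median of 0.843 for Cd6. Among the members the closest pairs were Cd6 with Cd5 (0.067), Selplg with Spn (0.141) and Icam1 with Icam2 (0.216), and the farthest was Cd2 with Vcam1 (1.89). These distances all include the shared scaling factor of each library.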

How the data were processed

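The deposited values are a signal: linear NanoString counts that the authors had normalized before they deposited them, as the values show. Which software and scaling they used, and whether background was subtracted, is not given in the sources used here. Over all 8 columns 100% of the values lay within 0.1 of a whole multiple of 1 step per library (0.822 to 1.29). The smallest value was 1 count in 1 library and 2 or 3 in the others, so the step was inferred and not read from a value of 1 count in those. For that reason no test on counts was run. The counts so recovered, 659771 to 819257 per library, were used for depth and for exact Poisson intervals, which cover counting error only.

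Genes with a value of 20 or more in at least 4 libraries were kept (609 of 770). Log2(value + 1) was fitted in limma 3.58.1 (R 4.3.3, lmFit, then eBayes with trend, and group as the only term). Its two-sided p-values were adjusted by Benjamini-Hochberg over those 609. Folds of dim genes are understated on this scale. Pairs were compared by exact permutation. The members, lists and pairs were chosen with earlier results of these data known. All members are named, as are the called genes of each list with the 3 largest changes, all called where 5 or fewer, and the 3 genes nearest to Cd6 and to Alcam. Glycam1 values per library and Itgb1 were added after their values were seen. 2 measured genes are not reported here. Lists of T cell, B cell, endothelial, stromal and macrophage genes served for the summed marker levels. Replicate numbers were not shown to pair the samples.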

Additional observations from a re-analysis of the deposited data

Results flagged for a closer look

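In 2 of 20 groups of 4 libraries tested (10 genes, 2 groups each), 1 library lay far from the other 3 of its group. Dixon's test was used on linear normalized counts, where chance flags about 1 in 20 if values are normally distributed. The log2 values of the other tests were not put to it. On that scale a high value stands less far apart. In both cases the library was labelled tumor-free replicate 3. Its Cd2 value was 417 against 94.8 to 135 in the other 3, a gap of 0.876 of the group's range. Its Spn value was 2521 against 1498 to 1668, a gap of 0.834.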

How the results depend on the processing

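The numbers of genes called higher and lower were 168 and 65, and those of members 5 and 0. On the reference genes they became 363 and 38 genes and 9 and 0 members, and with the same median 151 genes were lower, with 3 members higher and 1 lower. With the same total 109 genes and 1 member were lower, and after quantile normalization 121 genes were lower. With the replicate block 1 member, Vcam1, was lower, and the calls of the other members kept their side. Same-numbered samples deviated from their group means with correlations of 0.55, 0.03, 0.01 and -0.04, so the numbers were not taken as pairs. Leaving out 1 library gave 0 to 264 genes higher, 0 to 93 lower, 0 to 6 members higher and 0 to 1 lower. The fit without labelled tumor-bearing replicate 3 had 0 limma calls in either direction, against 220 higher and 66 lower at an unadjusted p under 0.05. The differences that changed sign were those of Cd44 with the same median (-0.0096), Icam1 with the same median (-0.19) and after quantile normalization (-0.13), and Icam2 with the same median (-0.44), the same total (-0.044) and quantile normalization (-0.21). Without 1 library Cd44 minus Spn ranged from -0.48 to 0.027 and Cd6 minus Cd3e from -0.057 to 0.038. Cd6 minus Alcam ranged from 0.63 to 1.12 and was called in none of the 8 fits, where the smallest possible p limits such calls. The cause of these changes was not tested. A pseudocount of 10, no filter, a filter at 100 (which removed Cd44), no trend and robust moderation changed no member's call. The 2 planned tests on whole counts were not run. Depth limits Cd44 most.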

Other observations

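The SD of log2 values was 1.02 in the labelled tumor-free and 0.079 in the labelled tumor-bearing libraries for Cd6, 1.01 and 0.066 for Cd5 and 0.353 and 0.037 for Spn (n = 4 each). It was 1.01 and 0.241 for Cd2, 0.422 and 0.424 for Alcam and 0.221 and 0.380 for Icam1. In Alcam, Cd44, Icam1, Icam2 and Vcam1 alike, labelled tumor-bearing replicates 1 and 2 were above replicates 3 and 4, at 2118 and 1913 against 1544 and 1555 in Icam2, as they were in the median of all 770 genes, at 224 and 191 against 140 and 143. Summed T cell markers were 62494, 56472, 54816 and 55571 in these 4 libraries.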
